A study of Mus musculus with 36 samples.

Results

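The Cyp3a genes of the mouse encode cytochrome P450 monooxygenases of the endoplasmic reticulum, and 8 of them on chromosome 5 were followed here across the livers of 24 mice: Cyp3a11, Cyp3a13, Cyp3a16, Cyp3a25, Cyp3a41a, Cyp3a44, Cyp3a57 and Cyp3a59. A CpG was taken as belonging to a gene when it lay between 5 kb upstream of the annotated start and 1 kb past the annotated end in the mm9 assembly, which gave 1243 CpGs of the 18887127 autosomal CpGs in the deposited counts, or 0.00658%. These were 1243 of the 1300 CpGs that mm9 holds in the same regions. The largest differences were between the sexes, at the start of Cyp3a41a and inside Cyp3a41a and Cyp3a44, where sires were more methylated than dams.

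Whole-genome bisulfite sequencing had been carried out on liver DNA of the inbred strains B6 (C57BL/6N) and C3 (C3H/HeN) and of their reciprocal hybrids, B6C3F1 (B6 dam and C3 sire) and C3B6F1 (C3 dam and B6 sire). Each strain or cross was represented by 3 males and 3 females, so that the 8 groups of 3 were B6 sires, B6 dams, C3 sires, C3 dams, and the sons and daughters of each cross. All animals were adults killed at the same age, on the same diets, and carried no transgene. By the study's methods the animals came from families of a sire, a dam, a son and a daughter, so the F1 animals were offspring of these parents and not independent of them, and the labels do not say which animals formed a family. The dams had borne and weaned litters, whereas the F1 daughters were virgins, so parity, generation and hybrid genotype cannot be told apart in a comparison of dams with daughters. Likewise, sex and parity cannot be told apart in a comparison of sires with dams. Bulk liver tissue was used, in which a changed level within a cell type and a changed share of that cell type cannot be told apart.

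Enzymes of this family oxidise steroids, bile acids and a large share of drugs, and hepatocytes are their main site in the body. Their genes are induced through the nuclear receptors PXR (Nr1i2) and CAR (Nr1i3). In adult mouse liver Cyp3a41a and Cyp3a44 are known as female-predominant genes, Cyp3a16 as a gene of the fetal and newborn liver and Cyp3a11 as the main form of the adult, and the sex difference of such genes is known to follow the pattern of growth hormone secretion. Methylated cytosines near the start of a liver gene usually go with low transcription, but no RNA was measured in these animals.

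On mm9 the genes other than Cyp3a13 stood in 819 kb, in the order Cyp3a57 (chr5:146106148-146151381, plus strand), Cyp3a16 (chr5:146197178-146230592, minus), Cyp3a41a (chr5:146505635-146531712, minus), Cyp3a44 (chr5:146585559-146617450, minus), Cyp3a11 (chr5:146666002-146691540, minus), Cyp3a25 (chr5:146788770-146821194, minus) and Cyp3a59 (chr5:146890834-146924861, plus). Cyp3a13 (chr5:138334160-138362847, minus) lay 7.74 Mb away. The regions were poor in CpGs, with 4.07 per kb against 7.64 per kb over the autosomes, and held between 119 (Cyp3a11) and 214 (Cyp3a44) measured CpGs each. The deposited list held 221 single-nucleotide variants in them, or 0.724 per kb against 1.14 per kb over the autosomes, ranging from 4 in Cyp3a41a to 97 in Cyp3a59. Every listed position was counted, without requiring that the bases of B6 and C3 differ.

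Stretches of Cyp3a41a, Cyp3a44 and Cyp3a16 are shown first, on the strand of the gene, in lower case with each CpG in capitals. The Cyp3a41a promoter and the stretches within the genes carry differences with higher levels in sires. The promoters of Cyp3a44 and Cyp3a16 were low in both sexes. Positions are those of the cytosine relative to the annotated start, which is base 0. The promoters of Cyp3a41a, Cyp3a44 and Cyp3a16 are shown because these neighbours share a promoter that is nearly the same in sequence and differed in methylation. The stretch within Cyp3a44 holds 4 CpGs from +483 to +692, the stretch of Cyp3a41a holds CpGs at +15180 and +15279 that have no copy elsewhere in the genome, and the 3 intron stretches are aligned copies of each other.
Cyp3a41a promoter, chr5:146531663-146531962: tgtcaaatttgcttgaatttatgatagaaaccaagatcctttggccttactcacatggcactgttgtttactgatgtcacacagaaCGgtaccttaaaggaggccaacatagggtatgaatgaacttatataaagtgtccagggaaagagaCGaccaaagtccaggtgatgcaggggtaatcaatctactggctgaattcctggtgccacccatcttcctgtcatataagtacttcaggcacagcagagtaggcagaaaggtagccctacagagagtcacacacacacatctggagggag
Cyp3a44 promoter, chr5:146617401-146617700: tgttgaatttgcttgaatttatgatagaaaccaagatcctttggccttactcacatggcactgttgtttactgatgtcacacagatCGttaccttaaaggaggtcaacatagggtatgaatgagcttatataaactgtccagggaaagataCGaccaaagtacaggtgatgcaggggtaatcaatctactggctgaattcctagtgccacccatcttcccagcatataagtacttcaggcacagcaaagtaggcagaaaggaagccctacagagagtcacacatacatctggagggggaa
Cyp3a16 promoter, chr5:146230543-146230842: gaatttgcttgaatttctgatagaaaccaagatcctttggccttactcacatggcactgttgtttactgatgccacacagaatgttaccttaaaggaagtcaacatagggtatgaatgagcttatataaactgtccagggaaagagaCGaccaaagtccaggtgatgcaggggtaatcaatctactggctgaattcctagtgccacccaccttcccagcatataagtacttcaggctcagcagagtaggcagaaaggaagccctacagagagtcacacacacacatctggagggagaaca
Cyp3a44 within the gene, chr5:146616737-146616987: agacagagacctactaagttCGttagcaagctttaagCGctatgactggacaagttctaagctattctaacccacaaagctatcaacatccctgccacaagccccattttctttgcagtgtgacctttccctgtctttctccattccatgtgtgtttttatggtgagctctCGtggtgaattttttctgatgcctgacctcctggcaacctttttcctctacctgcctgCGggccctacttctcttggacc
Cyp3a41a within the gene, chr5:146516412-146516552: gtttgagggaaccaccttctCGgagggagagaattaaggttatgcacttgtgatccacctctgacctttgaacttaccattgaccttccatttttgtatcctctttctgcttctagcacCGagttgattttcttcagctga
Cyp3a41a intron CpG, chr5:146530009-146530080: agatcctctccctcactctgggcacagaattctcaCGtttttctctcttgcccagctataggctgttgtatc
Cyp3a44 intron CpG, chr5:146615753-146615824: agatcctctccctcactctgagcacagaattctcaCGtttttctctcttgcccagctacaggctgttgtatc
Cyp3a16 intron CpG, chr5:146228840-146228911: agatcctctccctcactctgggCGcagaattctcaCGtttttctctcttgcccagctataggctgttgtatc

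Over 5 kb on either side of the start, Cyp3a41a was 93.0% identical to Cyp3a44 and 93.8% to Cyp3a16, and 98.8% identical to Cyp3a41b, a further copy between Cyp3a16 and Cyp3a41a that is not among the 8 genes. Cyp3a25 and Cyp3a59 were 95.8% identical, whereas Cyp3a41a and Cyp3a11 were 81.8% identical. In the 300 nt promoters (-250 to +49) a few letter patterns of liver factors were searched on both strands. TGTTTAC, the core of FOXA sites, stood in the promoters of Cyp3a16, Cyp3a41a, Cyp3a44 and Cyp3a11 and in 3.08% of the 21418 promoters of protein-coding genes. ATTGAT, the core of HNF6 sites, was found in Cyp3a57, Cyp3a16, Cyp3a41a and Cyp3a44 (7.14% of all promoters) and CAAAGTCCA, a pattern of HNF4 sites, in Cyp3a16, Cyp3a41a and Cyp3a11 (0.467%). TTCNNNGAA, the STAT pattern, was in 0 of the 8 promoters against 7.89% of all. None of these patterns overlapped another, and each match is a match of letters.

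Read depth was taken as reads per CpG divided by the mean over the autosomal CpGs of the same animal, which was 19.4 to 32.8 reads. In 7 of the genes the mean of B6, C3 and F1 animals lay between 0.901 and 1.10, at 24.3 to 30.3 reads per CpG. Cyp3a41a was the exception, at 0.651 in B6, 0.646 in C3 and 0.663 in F1 animals, or 18.7, 17.0 and 18.1 reads per CpG. Of its 147 CpGs, 106 lay in sequence of which an identical copy after bisulfite conversion, over 50 nt on either side, existed elsewhere in the genome, as did 81 of 214 in Cyp3a44 and between 2 and 15 in each of the others. With copied CpGs left out, the relative depth of Cyp3a41a was 0.899 in B6, 0.899 in C3 and 0.936 in F1 animals. Depth thus did not separate the strains. For the copied CpGs of Cyp3a41a the sequence over 50 nt on either side does not tell reads of a copy apart from its own. How many reads of a copy were counted there was not tested.

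**Figure D1:**
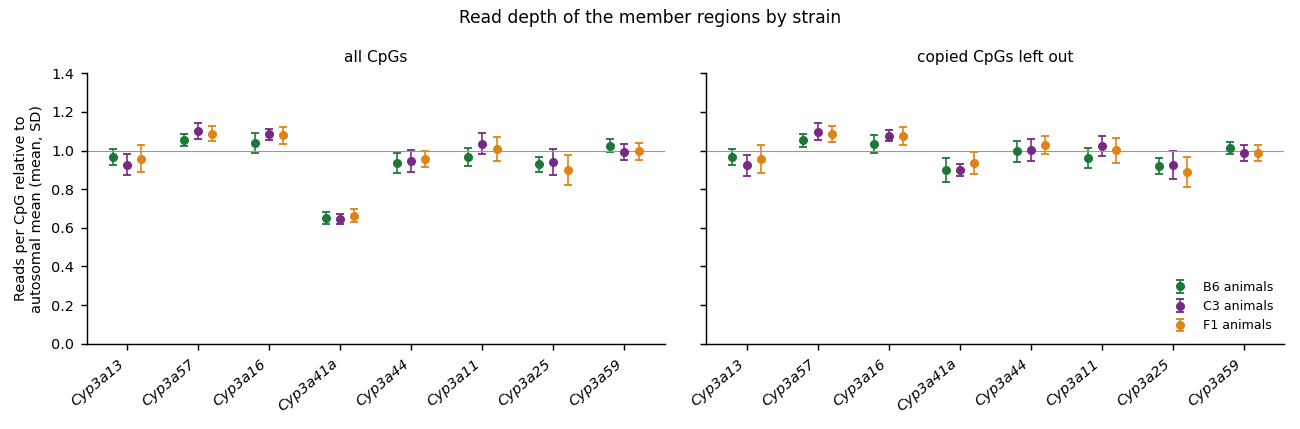
Reads per CpG in the region of each gene, divided by the mean over autosomal CpGs of the same animal (vertical axis, mean and SD of 6 B6, 6 C3 and 12 F1 animals), with all CpGs on the left and with copied CpGs left out on the right. Cyp3a41a lies near 0.65 in every strain on the left and at 0.899 to 0.936 on the right.

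The comparison of sires with dams asked whether liver methylation differs between males and females of the parents, where sex goes together with parity. Levels were compared in 1000-nt windows that held 3 or more CpGs and, in every animal, 20 or more reads, by limma on the log2 ratio of methylated to unmethylated reads, and a window was called at an adjusted p below 0.05 together with a difference of at least 20 percentage points. Of the 206 windows of the 8 genes, 7 were called higher in sires, 4 in Cyp3a41a and 3 in Cyp3a44, and 1, in Cyp3a11, was called lower. Over the 1988045 autosomal windows 0.0172% were called higher and 0.0482% lower in sires. At an adjusted p below 0.05 alone, 13 of the 206 were higher and 10 lower, against 20767 autosomal windows in either direction (limma). Over all 206, 93 were higher and 113 lower in sires (median -0.553 points), against 31.8% lower over the autosomes (median 0.870 points). Of the 4 windows of Cyp3a41a, only chr5:146516001-146517000 held enough uncopied CpGs to be tested without the copied ones. At single CpGs, tested with a beta-binomial Wald test at p below 1e-05 (differentially methylated CpGs, DMCs), 20 of 1219 tested were higher in sires, 10 in Cyp3a41a, 8 in Cyp3a44 and 2 in Cyp3a16, and 1, in Cyp3a11, was lower, against 0.0254% higher and 0.061% lower over all autosomal CpGs. Of these 21 DMCs 13 lay in introns, 3 in exons and 5 upstream of a gene, and 7 had a copy elsewhere in the genome.

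**Figure D2:**
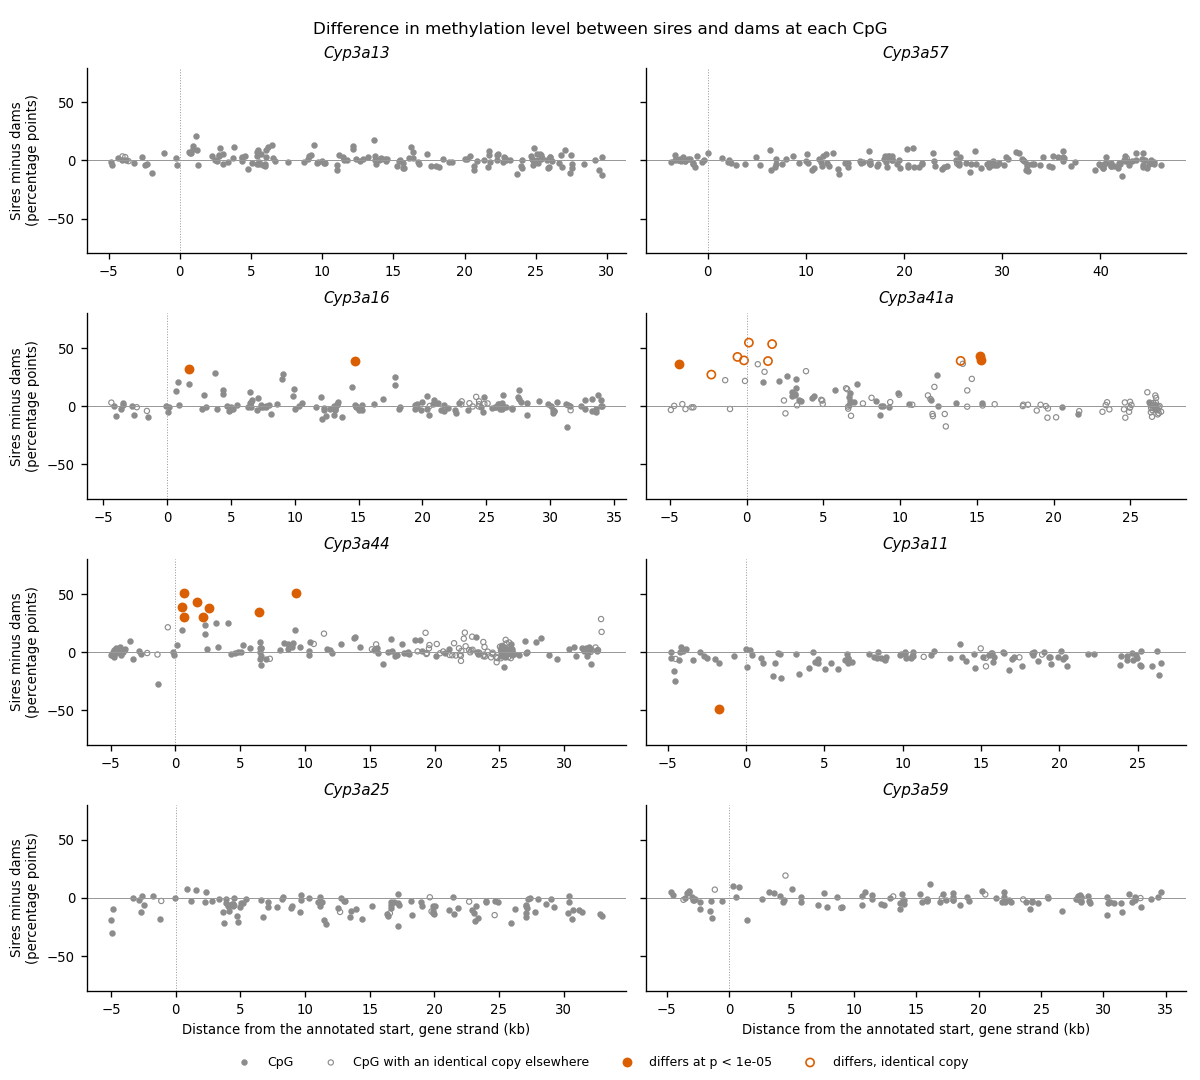
Difference in methylation level between the 6 sires and the 6 dams at each CpG (vertical axis, percentage points, from summed reads) against distance from the annotated start on the gene strand (horizontal axis, kb). Orange marks the 21 DMCs and open symbols CpGs with an identical copy elsewhere. Most male-high DMCs lie in Cyp3a41a and Cyp3a44, and Cyp3a11 has a female-high CpG at -1708.

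Cyp3a41a, a female-predominant steroid-metabolising form, showed the largest difference of the 206 windows. Its start region, from 1000 nt before to 500 nt after the start, held 4 CpGs, all copied. The level was 57.0% in the lowest, 60.0% in the median and 65.7% in the highest of the 6 sires, and 14.5%, 22.7% and 26.8% in the dams. The 6 sons ranged from 55.1% through a median of 56.0% to 72.4%, and the 6 daughters from 36.3% through 38.9% to 50.6%. Males and females did not overlap in either generation, and every daughter lay above every dam. By group the mean was 63.0% ± 3.34 in B6 sires, 23.8% ± 3.63 in B6 dams, 58.4% ± 2.09 in C3 sires and 19.9% ± 4.75 in C3 dams (SD, n = 3). In the F1 groups it was 63.0% ± 8.29 in B6C3F1 sons, 39.3% ± 5.07 in B6C3F1 daughters, 55.2% ± 0.13 in C3B6F1 sons and 42.8% ± 6.78 in C3B6F1 daughters (SD, n = 3).

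Sires exceeded dams at the start of Cyp3a41a by 38.8 points, a log2 ratio difference of 2.42 with a standard error of 0.16 (limma, adjusted p = 2.74e-11 over 20663 start regions). It was the single start region called of the 5 that had the 3 CpGs needed (Cyp3a57, Cyp3a16, Cyp3a41a, Cyp3a44 and Cyp3a11), against 0.0726% of all. The difference was 39.2 points in B6 (adjusted p = 2.64e-07, background 0.0726%) and 38.5 points in C3 (adjusted p = 6.44e-08, background 0.092%). Each value rested on 62 to 113 read counts summed over the CpGs, where a read that spans several CpGs counts at each. The Wilson 95% interval of the animal with the fewest, a C3 dam at 22.6% of 62, reached from 14% to 34.4%. It covers counting error alone and takes the counts as independent, so it is too narrow where CpGs share reads.

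**Figure D3:**
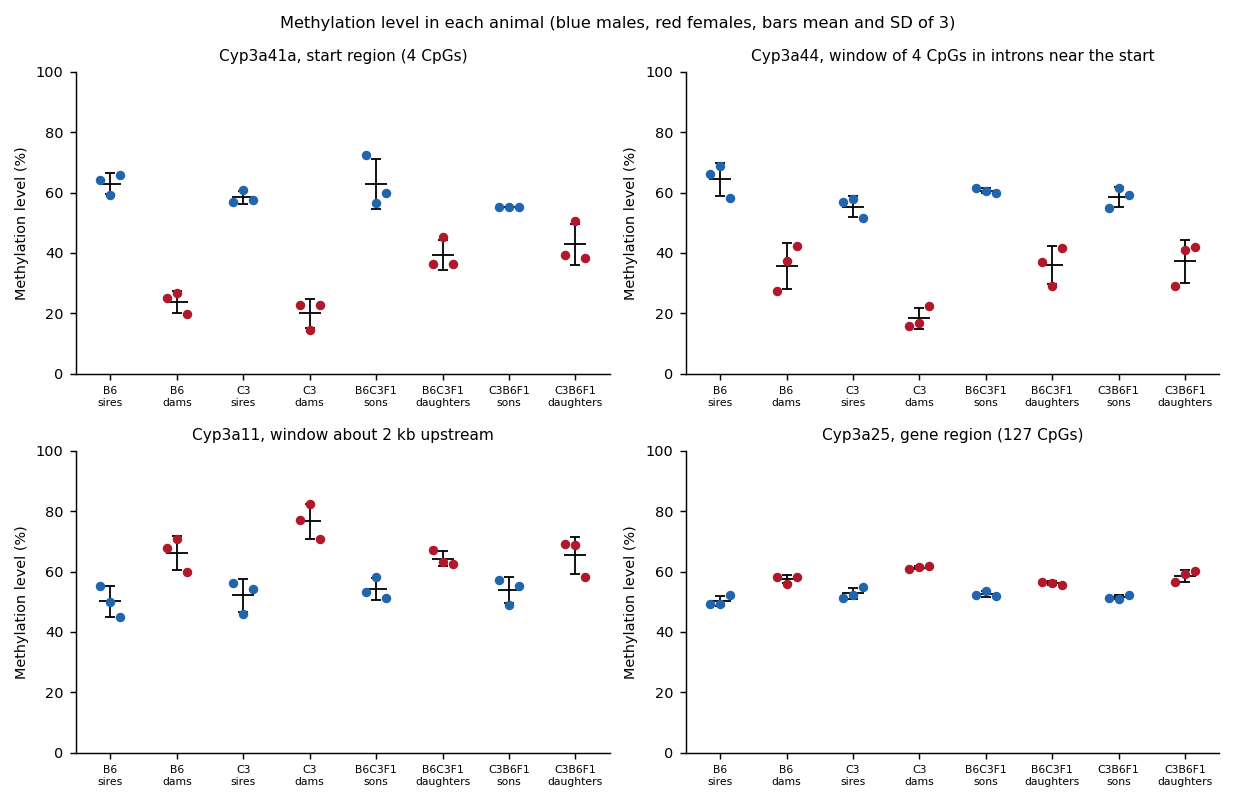
Methylation level of each animal (vertical axis, percent; blue males, red females) in 8 groups of 3, with mean and SD as bars, for the start region of Cyp3a41a, the window of Cyp3a44 with 4 CpGs from +483 to +692, the window of Cyp3a11 from -2020 to -1708 and the whole region of Cyp3a25. Sires lie above dams in Cyp3a41a and Cyp3a44 and below them in Cyp3a11 and Cyp3a25.

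The called windows of Cyp3a41a formed 2 stretches. The first, chr5:146530001-146532000, covered CpGs from -164 to +1667, where sires exceeded dams by 37.8 points upstream and in the exon around the start and by 39.8 points in the intron behind it (adjusted p = 1.43e-09 and 1.56e-08, limma). In the window at chr5:146530001-146531000 sires ranged from 73.6% to 83.1% with a median of 81.0%, and dams from 33.9% to 46.3% with a median of 39.6%. The second stretch, chr5:146516001-146518000, lay in introns and exons from +13942 to +15710, with 23.9 and 25.3 points (adjusted p = 2.61e-05 and 2.46e-05, limma). In the window at chr5:146516001-146517000 3 of 6 CpGs had a copy, and without them the difference was 28.9 points.

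At single CpGs the largest differences of Cyp3a41a were at +156 in an exon, 74.3% in sires and 19.5% in dams, and at +1667 in an intron, 75.2% and 21.6%. Both had copies. The uncopied CpGs printed above gave 87.4% and 43.9% at +15180 and 68.2% and 28.4% at +15279, and an uncopied CpG at -4389 gave 85.1% and 48.6%. These CpGs were chosen as DMCs. Over all its compared CpGs, 35 of 41 uncopied CpGs were higher in sires, with a median difference of 5.70 points, and 56 of 91 copied CpGs, with a median of 1.09 points. Of autosomal windows 31.8% were lower in sires, with a median difference of 0.870 points. Windows pool several CpGs, and no background of single CpGs was computed. A shift of the copied CpGs as a whole beyond the background is thus not shown. Cyp3a41b, which is nearly the same in sequence around its start, had a difference of 42.5 points at its start region (adjusted p = 1.42e-10, limma).

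Cyp3a44, the other female-predominant neighbour, was called in 3 adjoining windows, chr5:146614001-146617000, with 0 copied CpGs. In the window nearest the start, with 4 intron CpGs from +483 to +692, sires had 51.4% at the lowest, 58.0% at the median and 68.8% at the highest, and dams 15.7%, 24.9% and 42.4%. Sons ran from 54.9% through 60.1% to 61.5% and daughters from 29.1% through 38.9% to 41.8%, so that the sexes were apart in parents and in F1. The difference between sires and dams was 32.9 points there (adjusted p = 5.29e-08), 27.5 points from +1661 to +2442 (adjusted p = 5.39e-08) and 21.6 points from +2614 to +3260 (adjusted p = 3.22e-05, limma). The last of these fell to 19.3 points without B6 sire 1 and to 19.8 points without C3 dam 2, below the 20 points needed. The sequence of the stretch holds CpGs at +634 (62.6% in sires and 11.8% in dams), +483 (63.4% and 24.9%) and +692 (48.3% and 18.0%), each a DMC.

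Further into Cyp3a44, the intron CpG at +9279 was at 75.9% in sires and 25.0% in dams, and its window was called in C3 (21.4 points, adjusted p = 7.57e-04, limma) but not in B6. The start region of Cyp3a44 differed less. Of its 5 CpGs, the pair in the promoter at -164 (14.6% in sires and 14.2% in dams) and -99 (9.55% and 12.1%) lay close together, and those at -590 (47.3% and 25.9%) and +483, the latter also part of the called window, lay farthest apart. The region as a whole was at 26.2% to 36.8% in sires (median 31.1%) and 11.6% to 27.3% in dams (median 18.3%), groups that overlapped. The difference of 12.5 points passed an adjusted p of 0.05 (adjusted p = 7.96e-04, limma) without reaching 20 points. It was 17.3 points in C3 (adjusted p = 5.82e-04, limma) and 7.64 points in B6 (adjusted p = 0.471, limma). The gap between these values, -9.69 points for B6 minus C3, did not pass (adjusted p = 0.283, limma).

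Cyp3a16, the form of the newborn liver, had a start region at 16.5% to 22.9% in sires (median 20.2%) and 16.9% to 27.2% in dams (median 21.9%), groups that overlapped, with a difference of -2.08 points (adjusted p = 0.885, limma). Inside the gene, 2 intron CpGs were DMCs. The CpG at +1716 was at 56.7% in sires and 24.2% in dams, and that at +14691 at 66.9% and 27.5%. At +14691 the F1 groups had 54.4% in B6C3F1 sons, 46.0% in B6C3F1 daughters, 49.1% in C3B6F1 sons and 52.9% in C3B6F1 daughters, and lay close together. A single window, chr5:146229001-146230000 with CpGs from +732 to +954, was called in C3, with sires at 40.7% to 53.5% and dams at 24.2% to 29.9%, a difference of 20.0 points (adjusted p = 0.0185, limma). Over all sires and dams the difference was 11.7 points, and between sons and daughters it was -2.92 points (adjusted p = 0.918, limma). The call in C3 was lost without C3 sire 3 (16.4 points), C3 dam 1 (19.0 points) or C3 dam 2 (19.2 points).

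Aligning the neighbours let the same CpG be compared between them. The CpG at -164 of Cyp3a41a was at 67.1% in sires and 27.6% in dams, whereas its counterpart at -164 of Cyp3a44 was at 14.6% and 14.2%, and the Cyp3a16 promoter printed above has no CpG at that place. The CpG at -99 was at 40.4% and 18.5% in Cyp3a41a, 9.55% and 12.1% in Cyp3a44 and, at -103, 12.6% and 12.1% in Cyp3a16. The exon CpG at +156 was at 74.3% and 19.5% in Cyp3a41a, 27.3% and 21.3% in Cyp3a44 and 18.8% and 19.5% in Cyp3a16. These CpGs next to the start were low in both sexes in Cyp3a44 and Cyp3a16 and lower in dams than in sires in Cyp3a41a. Further upstream, the CpG at -590 was higher in sires in both female-predominant genes, at 66.1% and 23.6% in Cyp3a41a and 47.3% and 25.9% in Cyp3a44.

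Inside the genes the aligned CpGs varied. The intron CpG at +1667 of Cyp3a41a, +1661 of Cyp3a44 and +1716 of Cyp3a16 was male-high in all 3, and is described because it was a DMC in each. Sires and dams had 75.2% and 21.6% in Cyp3a41a, 49.5% and 6.34% in Cyp3a44, and 56.7% and 24.2% in Cyp3a16. At +1661 of Cyp3a44 the group means were 48.6% ± 2.47 in B6 sires, 6.25% ± 3.66 in B6 dams, 50.6% ± 2.24 in C3 sires and 5.80% ± 3.73 in C3 dams (SD, n = 3). In F1 they were 57.7% ± 9.68 and 51.8% ± 10.8 in the sons of B6C3F1 and C3B6F1 and 14.9% ± 7.32 and 19.3% ± 4.86 in the daughters. This CpG of Cyp3a44 and that of Cyp3a16 had no copy, while that of Cyp3a41a did. At another aligned intron CpG, +3872 of Cyp3a41a had 85.7% in sires and 55.4% in dams, whereas +3915 of Cyp3a16 had 72.7% and 74.6%.

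**Figure D4:**
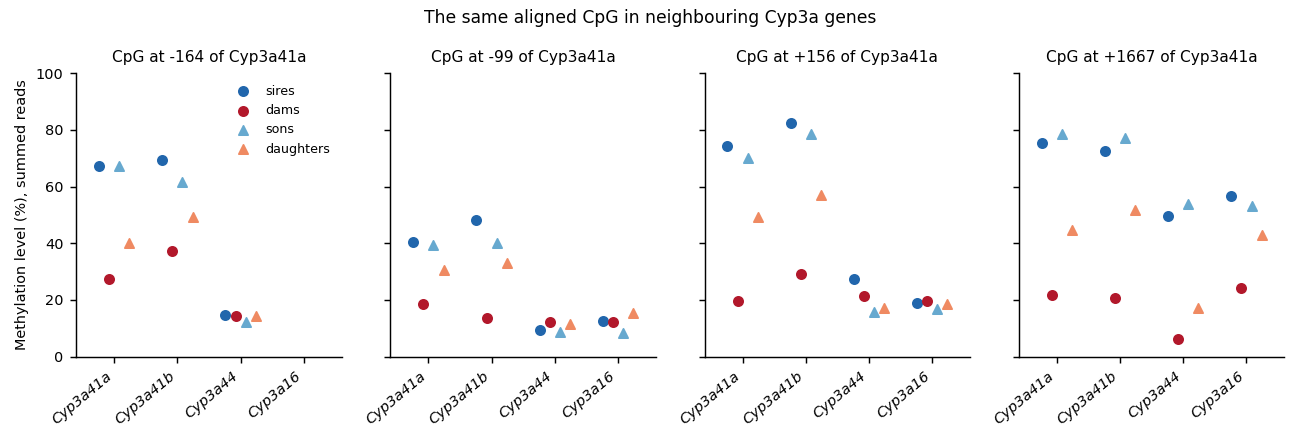
Methylation level (vertical axis, percent, from summed reads) of 4 CpGs of Cyp3a41a and of the CpG aligned to each in Cyp3a41b, Cyp3a44 and Cyp3a16, in the 6 sires, 6 dams, 6 sons and 6 daughters. At -164, -99 and +156 males exceed females in Cyp3a41a and Cyp3a41b and lie close to females in Cyp3a44 and Cyp3a16, and at +1667 males exceed females in every gene. Cyp3a16 has no CpG aligned to -164.

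Cyp3a11, the main adult form, went the other way. In the window from -2020 to -1708 upstream, chr5:146693001-146694000, sires had 45.0% at the lowest, 52.1% at the median and 56.3% at the highest, and dams 60.0%, 70.7% and 82.3%, groups that did not overlap. The difference was -20.3 points (adjusted p = 7.10e-05, limma). Leaving out B6 sire 3, B6 dam 1, B6 dam 2, C3 sire 2 or C3 dam 2 brought it to between -18.8 and -19.9 points, short of 20. The sons ranged from 49% to 58.2% (median 54.2%) and the daughters from 58.1% to 69.1% (median 65.2%), with an overlap at the edge. The CpG at -1708 accounted for the DMC, at 28.4% in sires and 77.5% in dams, with 26.4% ± 7.05 and 33.1% ± 15.4 in B6C3F1 and C3B6F1 sons and 55.4% ± 16.1 and 65.4% ± 10.3 in the daughters (SD, n = 3).

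The start region of Cyp3a11 did not show this difference, with 25.9% to 39.0% in sires (median 28.7%) and 28.3% to 38.5% in dams (median 32.4%). Over its whole region 22 of 23 windows were lower in sires, with a median difference of -5.59 points, where the median over autosomal windows was 0.870 and 31.8% of windows were lower in sires. The region as a whole was at 64.1% to 69.6% in sires (median 67.3%) and 68.8% to 74.9% in dams (median 72.7%), a difference of -5.14 points (log2 ratio -0.35, standard error 0.04, adjusted p = 6.66e-06, limma). Sires and dams overlapped in this measure, at the lowest B6 dam and the highest C3 sire.

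Cyp3a25, another form of adult liver, differed between the sexes throughout and nowhere strongly. All 23 of its windows were lower in sires than in dams, with a median of -7.71 points, although none was called and no CpG was a DMC. In sons and daughters 21 of 23 were lower in males, with a median of -5.86 points, against 45.4% of autosomal windows. The region of 127 CpGs was at 49.1% at the lowest, 51.7% at the median and 54.8% at the highest in sires and 56.0%, 59.5% and 61.9% in dams. Sons ranged from 51.0% through 52.0% to 53.6% and daughters from 55.5% through 56.6% to 60.3%. Males and females were thus apart in both generations. The difference was -7.93 points in the parents (log2 ratio -0.46, standard error 0.05, adjusted p = 5.66e-06) and -5.34 points in F1 (adjusted p = 1.99e-03, limma). The start regions of Cyp3a25, Cyp3a13 and Cyp3a59 held 1 or 2 CpGs and were not tested. Their medians in sires and dams were 13.8% and 12.0%, 7.0% and 9.01%, and 64.9% and 62.5%.

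Over whole regions, 4 of the 8 genes passed an adjusted p of 0.05 between sires and dams, where 13.5% of 21245 gene regions did. Cyp3a41a (7.63 points) and Cyp3a44 (4.27 points) were higher in sires, Cyp3a11 and Cyp3a25 lower. The same 4 passed within B6, at 6.92, 2.98, -4.32 and -7.29 points in that order (background 7.42%), and within C3, at 8.34, 5.56, -5.97 and -8.57 points (background 5.53%). In B6 the value of Cyp3a44 missed the threshold without B6 dam 1 (2.53 points, adjusted p = 0.0550, limma). Cyp3a13, Cyp3a57, Cyp3a16 and Cyp3a59 differed by 1.74, -1.04, 1.53 and -0.785 points and did not pass.

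**Figure D5:**
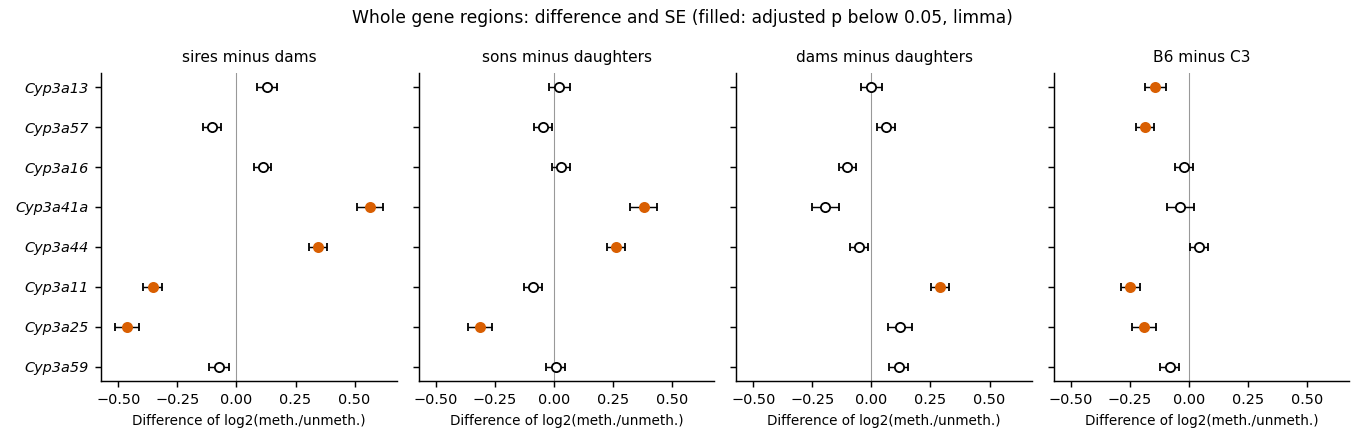
Difference of the log2 ratio of methylated to unmethylated reads over each whole gene region (horizontal axis, with standard error as bars) for 4 comparisons, with filled symbols where limma gave an adjusted p below 0.05. Cyp3a41a and Cyp3a44 lie above 0 and Cyp3a25 below 0 in both comparisons of the sexes, and Cyp3a11 stands out between dams and daughters.

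Within the strains the windows called followed the same genes. In B6 7 of 206 windows were called higher in sires, 5 in Cyp3a41a and 2 in Cyp3a44, and 0 lower, against 0.0198% higher and 0.0401% lower of all autosomal windows. With copied CpGs left out 3 remained called, and the windows of Cyp3a41a at chr5:146516001-146518000 were lost without B6 sire 1, B6 sire 3, B6 dam 1 or B6 dam 3 (adjusted p = 0.0544 to 0.141, limma). The window added in B6, in Cyp3a41a from +3872 to +4378, had 75.7% ± 8.78 in B6 sires and 47.2% ± 3.81 in B6 dams (SD, n = 3). In C3 9 were called higher, 4 in Cyp3a41a, 4 in Cyp3a44 and 1 in Cyp3a16, and 1 lower, in Cyp3a11 (-24.5 points), against 0.0263% and 0.0737%. The difference between the strains in the effect of sex was tested as such by limma. It was called in 0 of 206 windows, where 0.000503% of autosomal windows were called. At an unadjusted p below 0.05 there were 19, a count for which that share is not the background. A window called in a single strain is therefore not shown to differ between the strains.

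The sons and daughters, whose levels did not enter the differences between the parents but whose spread entered the shared variance of the fit, showed the same direction at each of the 8 windows called between sires and dams, unlike the Cyp3a16 window that was called in C3 alone. By limma 3 of 206 windows were called higher in sons and 0 lower, 2 in Cyp3a41a and 1 in Cyp3a44, where 0.00277% of autosomal windows were higher and 0.0314% lower. These were chr5:146517001-146518000 (22.1 points, adjusted p = 4.02e-04), chr5:146530001-146531000 (23.4 points, adjusted p = 8.80e-05) and chr5:146616001-146617000 (23.0 points, adjusted p = 1.12e-04), and sons and daughters did not overlap in any. In the windows of Cyp3a41a 5 of 5 and 4 of 5 CpGs were copied, and with copied CpGs left out the 1 window of Cyp3a44 remained. Of 1222 CpGs tested 4 were DMCs higher in sons and 0 were lower, all 4 in Cyp3a44 and without a copy, against 0.00276% and 0.0401%. The intron CpG at +1661 was at 53.9% in sons and 17.0% in daughters, that at +634 at 56.9% and 23.2%, and that at +9279 at 74.8% and 35.7%.

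At the 20 CpGs that were higher in sires the median difference was 39.3 points between sires and dams and 21.6 points between sons and daughters, with a range of 2.56 to 39.2 points in F1. These CpGs had been chosen by the difference in the parents, so the parents' median describes the choice. Sons exceeded daughters at all 20, and at all 21 DMCs the daughters lay between dams and sires. Since the choice was made on sires and dams, a place of the daughters between them can follow from the choice. Over whole regions Cyp3a41a (4.97 points), Cyp3a44 (3.25 points) and Cyp3a25 (-5.34 points) passed between sons and daughters (adjusted p = 8.01e-04, 5.26e-04 and 1.99e-03, limma), 3 of 8 genes where 0.588% of all gene regions passed. The start region of Cyp3a41a differed by 18.0 points (adjusted p = 6.18e-04, limma), under the 20 points needed, where 0.0484% of start regions were called.

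Dams were then compared with the virgin F1 daughters, a comparison in which parity goes together with generation and hybrid genotype. The level at the start of Cyp3a41a was lower in dams by 19.2 points (log2 ratio -1.29, standard error 0.16, adjusted p = 5.16e-05, limma), with 6 of 6 dams below all 6 daughters. This missed the 20 points needed for a call (0.00484% of start regions were called, and that 1 was that of Cyp3a41b, at -21.5 points). The exon CpG at +156, in a copied sequence, was the 1 DMC of 1218 CpGs tested, at 19.5% in dams and 49.4% in daughters, against 0.0151% of autosomal CpGs. By group it was 22.3% ± 10.3 in B6 dams, 15.8% ± 2.18 in C3 dams, 53.5% ± 9.77 in B6C3F1 daughters and 46.4% ± 6.48 in C3B6F1 daughters (SD, n = 3). It was no longer a DMC without B6 dam 2, C3 dam 1, C3 dam 2, B6C3F1 daughter 2, B6C3F1 daughter 3 or C3B6F1 daughter 3.

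No window of the 8 genes was called between dams and daughters (0 of 206 by limma, where 0.00845% of autosomal windows were called). At an adjusted p below 0.05 there were 3 and at an unadjusted p 34, against 2077 and 161973 of 1988045 autosomal windows. Cyp3a11 differed in the other direction from Cyp3a41a. All 23 of its windows were higher in dams than in daughters, with a median of 3.94 points where the autosomal median was -0.497, and its whole region differed by 4.14 points (adjusted p = 1.04e-03, limma), the 1 of 8 genes that passed where 0.993% of all gene regions did. Dams were at 68.8% to 74.9% and daughters at 66.6% to 69.2%, with an overlap at the edge. Between sires and sons, 0 of 206 windows were called by limma, where 0.00126% of autosomal windows were called. At an adjusted p below 0.05 there were 0 and at an unadjusted p 17, against 157 and 129614 of 1988045 autosomal windows. Of 1220 CpGs 0 were DMCs, where 9.69e-05% of autosomal CpGs were. By the same Wald test 17 had an unadjusted p below 0.05, for which the autosomal share is not given.

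Whether the sexes differed more in the parents than in F1 was tested as a difference of differences. At the start of Cyp3a41a the gap between males and females was 20.8 points larger in the parents (log2 ratio 1.37, standard error 0.23, adjusted p = 0.0208, limma), the 1 of 5 start regions called where 0.00968% of all were. The start of Cyp3a41a missed the threshold, at adjusted p between 0.0512 and 0.0733 (limma), without B6 sire 1 or 3, B6 dam 3, C3 sire 2, C3 dam 2, B6C3F1 son 2 or 3, B6C3F1 daughter 2, C3B6F1 son 2 or C3B6F1 daughter 2. The window around the start of Cyp3a41a gave 19.7 points (adjusted p = 0.0284, limma), so 0 of 206 windows were called, where 0.00719% of autosomal windows were. At an unadjusted p below 0.05 there were 35 (limma), a count for which that share is not the background. Over whole regions Cyp3a11 gave -3.80 points (adjusted p = 0.0498, limma, background 0.287%), at the edge of the threshold.

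Between B6 and C3, averaged over the sexes of the parents, 0 of 206 windows were called by limma, where 0.373% of all autosomal windows were called. At an adjusted p below 0.05 there were 13, 3 higher and 10 lower in B6, and at an unadjusted p below 0.05 there were 63. Of the 1988045 autosomal windows 137491 and 395323 passed these 2 thresholds. Of 1207 CpGs 2 were DMCs, both in an intron of Cyp3a13, a form of liver and intestine, and 2 nt apart, against 0.373% of autosomal CpGs. The CpG at +20675 was at 87.4% of 191 reads in B6 and 50.6% of 87 reads in C3, and that at +20673 at 91.5% of 189 and 55.8% of 86 reads. At +20675 B6 sires were at 85.2% ± 9.13, B6 dams at 88.5% ± 3.21, C3 sires at 39.1% ± 0.79 and C3 dams at 60.6% ± 23.4 (SD, n = 3), and the F1 groups at 75% to 80.8% on average. C3 had fewer reads than B6 there, and the part of depth in the result was not tested. Without C3 sire 1 or 2, 1 of the CpGs was left, and without C3 sire 3 there was none. With at least 10 reads required in every animal, 0 DMCs were left.

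Whole regions were lower in B6 than in C3 in Cyp3a13 (-1.91 points), Cyp3a57 (-1.86), Cyp3a11 (-3.56) and Cyp3a25 (-3.20) (adjusted p = 0.0189, 1.24e-03, 8.23e-05 and 8.12e-03, limma), 4 of 8 genes where 28.1% of all gene regions passed. That of Cyp3a13 was lost without C3 sire 3 (adjusted p = 0.0589) or C3 dam 3 (adjusted p = 0.0514). The start of Cyp3a44 was 7.90 points higher in B6 (adjusted p = 4.88e-03, limma), the 1 of 5 start regions past an adjusted p of 0.05. The share of all start regions past this threshold is not given. Levels were 25.1% ± 2.01 in B6 dams and 12.4% ± 0.78 in C3 dams against 32.7% ± 3.72 in B6 sires and 29.7% ± 3.21 in C3 sires (SD, n = 3). The sires of the strains thus lay within their spread of each other. The test of strain by sex at this start gave -9.69 points (adjusted p = 0.283, limma), so a strain difference confined to dams is not shown. The reciprocal crosses did not separate at these genes, with 0 of 206 windows called by limma, where 0.000252% of autosomal windows were called. At an adjusted p below 0.05 there were 0 and at an unadjusted p 14, against 11 and 127335 of 1988045 autosomal windows. Of 1221 CpGs 0 were DMCs, where 0.000748% of autosomal CpGs were. By the same Wald test 17 had an unadjusted p below 0.05, for which the autosomal share is not given.

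Most of the cluster was highly methylated, with a median window level of 80.5% against 83.1% over the autosomes. Of 206 windows 10 were below 30% in all 8 groups, or 4.85% against 2.28% of autosomal windows. They included windows at or before the starts of Cyp3a13 (15.5% to 29.7%), Cyp3a16 (17.3% to 28.6%) and Cyp3a44 (11.9% to 19.5%) and stretches inside Cyp3a16 (10.6% to 15%, from +4684 to +5468, with 5 CpGs in introns and 1 in an exon) and in introns of Cyp3a41a (11.6% to 16.5%, from +4867 to +4964) and Cyp3a44 (9.92% to 15.8%, from +4631 to +5204). This place inside the gene was thus low in these 3 neighbours in every group, in sires and dams alike. Cyp3a25 and Cyp3a59, nearly identical in sequence, differed in level inside the gene. Of 9 aligned CpGs, the 3 upstream were at 84.4% to 95.0% in sires in Cyp3a25 and 89.2% to 94.7% in Cyp3a59, and that at +4053 was at 69.1% and 78.4%. At the others Cyp3a25 was lower. The CpG at +894 of Cyp3a25 was at 13.8% in sires and 5.93% in dams, and +814 of Cyp3a59 at 63.4% and 54.1%. Further on, +3346 of Cyp3a25 was at 14.3% and 15.2% and +3243 of Cyp3a59 at 76.4% and 71.2%. Cyp3a57 and Cyp3a59, 2 less studied genes, had the highest mean levels of the 8 genes, at 80.5% to 84.4% and 79.8% to 82.8% over the 12 parents.

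Of 21 genes listed as regulators, redox partners or copies of the Cyp3a genes, 20 could be tested at their start regions. Cyp3a41b was the only one called between sires and dams. Between B6 and C3, 1 of the 20, PXR (Nr1i2), passed an adjusted p of 0.05, 5.24 points higher in B6 (adjusted p = 8.18e-04, limma). The share of all start regions past this threshold is not given, so an excess over the background is not shown. Over gene regions, of which 13.5% of all passed in either direction, 4 of 20 were higher and 0 lower in sires: CAR (Nr1i3, 3.21 points), Cux2, a repressor present in female liver (1.42 points), Cyp3a41b (6.58 points) and Prlr, the prolactin receptor (7.10 points, adjusted p = 1.98e-09, limma). Between sons and daughters Prlr was higher (2.47 points) and Ghr, the growth hormone receptor, lower in sons (-2.19 points). Between dams and daughters both were lower in dams (-4.07 and -2.68 points). Between B6 and C3 8 of 20 were lower in B6, where 28.1% of all gene regions passed in either direction. The genes whose start regions followed that of Cyp3a41a most closely over the 24 animals, of 20658 compared, were Cyp3a41b (r = 0.927) and A1bg, the gene of a secreted glycoprotein (r = 0.891), or 0.905 and 0.877 without the 2 animals farthest from the median. All 24 points share the same groups, and for Cyp3a41b copied sequence.

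Levels at the start regions of marker genes were averaged by cell type. Hepatocyte markers (8 of 8 measured) had group means of 28.0% to 35.5%, stellate cell markers (4 of 4) 22.1% to 25.8%, cholangiocyte markers (3 of 3) 33.9% to 36.7% and endothelial markers (4 of 4) 53.7% to 55.7%. Markers of leukocytes (5 of 6) were at 82.0% to 85.6% and of Kupffer cells (3 of 4) at 83.8% to 86.5%. Single genes of a cell type lay far apart. Over all males, hepatocyte markers ran from 21.4% (Ahsg) to 57.3% (Tat) and stellate markers from 0.625% (Reln) to 53.8% (Pdgfrb). Cholangiocyte markers ran from 0.796% (Sox9) to 73.8% (Krt19) and endothelial markers from 3.32% (Kdr) to 78.5% (Cdh5). Leukocyte and Kupffer cell markers lay closer together. The means thus cannot be read as shares of cell types. Between sires and dams these means were 31.8% and 29.8%, 22.9% and 24.3%, 35.5% and 35.3%, 54.8% and 54.5%, 84.1% and 83.3%, and 86.2% and 84.9% in the same order. Their part in the differences of the Cyp3a genes was not tested.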

How the data were processed

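Whole-genome bisulfite reads of 24 livers were processed by the authors, who filtered reads on mean base quality, aligned them with Bismark 0.7.8 and Bowtie 0.12.8 to mm9 and phage lambda, removed duplicates, clipped read ends with biased calls, cut the overlap of read pairs and pooled libraries by animal. Per the file headers the deposited values are counts of methylated and of unmethylated reads per CpG and animal, both strands together, for CpGs whose context held in mm9 and in both strains. A deposited list gave the bases of B6 and C3 at single-nucleotide variants. Because CpGs that differ between the strains were dropped, effects of such CpGs were not measured. FOXA1 ChIP-seq samples of the series were not analysed here. A gene and a stretch of sequence that the naming rules would include are not reported here.

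Methylated and unmethylated counts were summed over windows of 1000 nt, start regions (1000 nt before to 500 nt after the start) and gene regions (5000 nt before the start to 1000 nt past the end) of mm9 protein-coding genes, with at least 3 CpGs and 20 reads in every animal. log2((methylated + 1)/(unmethylated + 1)) was fitted for all 8 groups with limma 3.58.1 in R 4.3.3 (trend), with Benjamini-Hochberg adjustment over all windows or genes. Windows and regions were called where the adjusted p was below 0.05 and the group means of the animals' levels lay 20 or more percentage points apart. Single CpGs that 5 or more reads covered in 50% or more of the animals in both groups were compared by a two-sided Wald test on a beta-binomial model like that of DSS, unsmoothed, and were called DMCs at p below 1e-05. Both fits were tested on simulated counts. DMC levels are of summed reads, and ± gives the SD over animals. A CpG was called copied when the bisulfite-converted sequence 50 nt on either side occurred elsewhere in the genome. Genes were aligned over 5000 nt on either side of the start with Biopython 1.88. Motifs were searched from 250 nt before to 49 nt after the start.

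Named were all 8 genes, their called windows (up to 3 per direction, gene and comparison by size, neighbours together), and a list of regulators, partners and copies. The genes, lists and tests were chosen with earlier results of these data known. The 24 pairs of libraries within groups gave a chi-square per degree of freedom of 1.26 to 1.36 over windows, and no pair was merged. CpGs of a window can share reads, so counting noise alone can exceed 1, and this chi-square was not computed for pairs across groups. Autosomal methylation was 75.0% to 77.5%. Intervals cover counting error only, since reads carried no molecular identifiers.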

Additional observations from a re-analysis of the deposited data

Results flagged for a closer look

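In 3 measures of the Cyp3a genes the difference between males and females was not the same in parents and in F1, by limma's test of the difference itself. At the start region of Cyp3a41a the difference was 20.8 points larger in the parents (adjusted p = 0.0208), with sires and dams at 60.7% ± 3.53 and 21.9% ± 4.34 and sons and daughters at 59.1% ± 6.76 and 41.1% ± 5.69 (SD, n = 6). The window around that start, chr5:146531001-146532000, holds 3 of its 4 CpGs, all of them copied, and gave 19.7 points (adjusted p = 0.0284). The region of Cyp3a11 gave -3.80 points (adjusted p = 0.0498), with 67.2% ± 1.88 in sires, 72.3% ± 2.52 in dams, 66.9% ± 0.51 in sons and 68.2% ± 0.86 in daughters (SD, n = 6). The value for Cyp3a11 passed without B6 sire 3, C3 sire 1, B6C3F1 daughter 2 or C3B6F1 son 3 and missed the threshold without any other of the animals (20 of 24, adjusted p = 0.0543 to 0.0985, limma). In each of the 3 the females of the generations lay farther apart than the males. Parity, generation and hybrid genotype cannot be told apart.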

How the results depend on the processing

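The direction of all 53 windows and regions named as called or past the threshold was the same in every alternative that gave a value (1554 values), and 1500 of them stayed past the threshold. The pseudocount, the variances, the block, the thresholds and animals outside a comparison do not enter its difference in points. Under those settings the direction could not change. Windows of 500 and 2000 nt were not part of this check. Counts of windows called moved with how windows were defined. With the size of 500 nt and the minimum of 5 CpGs changed together, so that their parts were not tested apart, 1 window was called between sires and dams, 0 in B6, 1 in C3 and 0 between sons and daughters, in place of 8, 7, 10 and 3. With windows of 2000 nt there were 3, 4, 5 and 1. With at least 50 reads there were 5 between sires and dams and 4 in B6, since fewer windows passed. With copied CpGs left out there were 5 between sires and dams, 3 in B6 and 1 between sons and daughters. A difference of 10 points gave 17 between sires and dams (13 higher and 4 lower), 6 between sons and daughters, 3 between B6 and C3, 2 between dams and daughters and 1 for the difference of the sexes between generations, the latter 3 in place of 0. A minimum of 1 read, a pseudocount of 5, robust variances and leaving out CpGs near variants moved no count of windows by more than 1.5 times.

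For DMCs, p below 1e-04 gave 33 between sires and dams and 7 between sons and daughters in place of 21 and 4, and smoothing over 250 bp gave 11 and 1. Between B6 and C3 both DMCs were lost (0) with at least 10 reads in every animal and with smoothing (0). Between dams and daughters the DMC was lost (0) with copied CpGs left out. The relative depth of Cyp3a41a was 0.656 with all CpGs and 0.918 without copied ones.

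Leaving out each animal in turn gave 6 to 9 windows between sires and dams, 5 to 7 in B6, 9 to 11 in C3, 3 between sons and daughters, and 0 to 1 between dams and daughters and for the sexes between generations. The window called between dams and daughters appeared without B6 dam 1 or 2, C3 dam 1, B6C3F1 daughter 3 or C3B6F1 daughter 1, and that for the sexes between generations without B6 sire 2, B6 dam 1 or 2, C3 sire 1, C3 dam 1, B6C3F1 son 1, B6C3F1 daughter 3, C3B6F1 son 2 or 3 or C3B6F1 daughter 1. DMCs numbered 16 to 20 between sires and dams, 3 to 5 between sons and daughters, 0 to 2 between B6 and C3 and 0 to 1 between dams and daughters. Over all comparisons start regions called numbered 3 to 5 (4 with all animals) and gene regions past the threshold 19 to 23 (21). In B6 the windows of Cyp3a41a at +13942 to +15710 missed the threshold without B6 sire 1 or 3 or B6 dam 1 or 3 (21.0 to 24.4 points), and in C3 the window of Cyp3a44 at +8665 to +9279 fell to 19.9 points without C3 dam 3.

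Deviations from the group means correlated at -0.013 to 0.072 over 84 pairs of same-numbered animals of different groups and at -0.040 to 0.016 over animals with other numbers. The labels do not tie the numbers to families, and the animals were not treated as paired. With the replicate number as a block, 8 windows were called between sires and dams, 7 in B6, 10 in C3 and 3 between sons and daughters, start regions called stayed at 4, and gene regions past the threshold numbered 22. Depth limits small differences, and the cause of the changes was otherwise not tested.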

Other observations

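Cyp3a41b, the near copy of Cyp3a41a at chr5:146319544-146345599, held 145 CpGs, 99 of them copied. Its start region had 3 CpGs, at 68.6% ± 2.44 in B6 sires, 29.1% ± 2.77 in B6 dams, 66.4% ± 2.79 in C3 sires and 20.8% ± 3.36 in C3 dams (SD, n = 3). In F1 it was at 64.9% ± 5.55 in B6C3F1 sons, 43.6% ± 4.73 in B6C3F1 daughters, 56.5% ± 11.3 in C3B6F1 sons and 49.3% ± 11.7 in C3B6F1 daughters. The aligned CpGs of Cyp3a41b at -164, -99, +160 and +1671 were at 69.5%, 48.2%, 82.3% and 72.5% in sires and 37.4%, 13.5%, 29.2% and 20.7% in dams.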
